A study of Rattus norvegicus with 6 samples.

Results

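The miR-34 and miR-449 microRNAs were followed in the lumbar spinal cord of rats with bone cancer pain (BCP). The members were taken by name as every row of the count table for miR-34a, miR-34b, miR-34c, miR-449a and miR-449c, with either arm of the hairpin, which gave 10 of the 753 listed mature miRNAs. The small RNA libraries came from 3 BCP replicates and 3 sham-operated (sham) replicates, collected 14 days after surgery. BCP rats received living Walker 256 breast carcinoma cells in the medullary cavity of the left tibia, and sham rats received heat-killed cells at the same place, so both groups had the surgery and tumor cell material. The study calls them biological replicates, and each is called a rat below, although the labels do not say that it is a single animal. The tissue was the lumbar enlargement of the injected side, without meninges. The sample labels give the strain as Wistar, whereas the methods of the study give female Sprague Dawley rats. Total counts lay between 13464349 and 23770677 per library, so that 3 counts, taken as the least amount that can be told from 0, corresponded to 0.126 to 0.223 CPM (counts scaled to the library total).

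A microRNA (miRNA) is cut from a hairpin precursor that can give a 5p and a 3p arm, and it represses mRNAs that pair with its seed, bases 2 to 8 from the 5′ end. miR-34a is a direct transcriptional target of p53 and represses genes of the cell cycle and of cell survival. miR-34b and miR-34c come from one primary transcript and, together with the miR-449 cluster, act in multiciliated cells, where they repress Ccp110 and support the formation of cilia. In the spinal cord, the ependymal cells that line the central canal carry cilia. In bulk tissue, more cells of one type and more of a miRNA in each cell cannot be told apart.

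All 10 members had a mature sequence in RefSeq on the rat assembly GRCr8. This assembly is not the Rnor_6.0 assembly to which the authors mapped their reads, so its positions are given only to show which hairpins are neighbours. Mir34a lies at chr5:165815952-165816053 on the plus strand, within the long non-coding RNA gene LOC103692514. Mir34c, at chr8:60306091-60306167, and Mir34b, at chr8:60306609-60306692, lie on the minus strand with 441 bases between them, and both overlap the gene Hoatz, whose product is needed for motile cilia and flagella. Mir449c, at chr2:46402375-46402473, and Mir449a, at chr2:46403910-46404000, lie on the plus strand with 1436 bases between them, within LOC134485839. The nearest protein-coding gene before the miR-449 pair is Mcidas, which encodes a regulator of multiciliated cell differentiation. Whether the hairpins lie in exons or introns was not examined.

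The 5p arms are shown because all 5 share the seed GGCAGUG, printed in capitals, and no other rat mature miRNA in the RefSeq set used here has it.
rno-miR-34a-5p: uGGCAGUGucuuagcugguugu
rno-miR-34b-5p: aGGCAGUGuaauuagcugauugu
rno-miR-34c-5p: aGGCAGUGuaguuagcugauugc
rno-miR-449a-5p: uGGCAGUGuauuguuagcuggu
rno-miR-449c-5p: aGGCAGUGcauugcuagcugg
The arms from the 34b/34c cluster, miR-34b-5p and miR-34c-5p, are identical at 21 of 23 positions. Counted from 1 at the 5′ end, with the miR-34c-5p base first, they differ by G11A and C23U. Aligned at the 5′ end without gaps, miR-34a-5p and miR-449a-5p are identical at 15 of 22 positions. For miR-34a-5p and miR-34c-5p it is 11 of 22. miR-34c-5p is a base longer, and with a gap more of its bases match miR-34a-5p. These counts therefore do not rank how alike the sequences are. The methods of the study do not state how reads that match more than one miRNA were assigned, so the split of counts between miR-34b-5p and miR-34c-5p is uncertain to that extent.

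The 3p arms of the 34b/34c cluster are shown because they share a different seed, AUCACUA, which no other mature miRNA in that set has.
rno-miR-34b-3p: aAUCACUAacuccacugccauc
rno-miR-34c-3p: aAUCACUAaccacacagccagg
rno-miR-34a-3p: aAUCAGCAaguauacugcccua
The seed of miR-34a-3p, AUCAGCA, is its own. miR-34b-3p and miR-34c-3p are identical at 17 of 22 positions.

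Normalized levels of the members spanned more than 3 orders of magnitude. Levels are CPM after normalization by the trimmed mean of M-values (TMM), averaged over the 6 libraries. Counts were not scaled by length, since mature miRNAs are of similar size, and ligation during library preparation favours some sequences, so a ratio between different miRNAs is a ratio of reads and not of molecules. miR-34a-5p, at 1997 CPM, was rank 54 of the 753 listed miRNAs, between miR-323-3p at 2067 CPM and miR-382-5p at 1947 CPM. miR-34c-5p followed at 355 CPM, rank 119. Its 23 nucleotides exceed the 21 to 22 that the authors took for known miRNAs, and the effect on its level was not tested. miR-34b-3p had 72.8 CPM, miR-34c-3p 11.6 CPM, miR-449a-5p 4.196 CPM, miR-34a-3p 1.19 CPM and miR-34b-5p 0.858 CPM. These 7 members passed the filter on low counts. From miR-34a-5p down to miR-449a-5p, no level overlapped that of the next member in any library. miR-449a-5p exceeded miR-34a-3p in every library, although its level in sham rat 2 was no higher than the highest miR-34a-3p level, 1.58 CPM in each case. miR-34a-3p and miR-34b-5p were neighbours with overlapping levels, and miR-34a-3p had the higher count in 5 of 6 libraries. The other 3 members, rno-miR-449a-3p, rno-miR-449c-5p and rno-miR-449c-3p, were at or near 0 and are described with the miR-449 cluster.

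**Figure D1:**
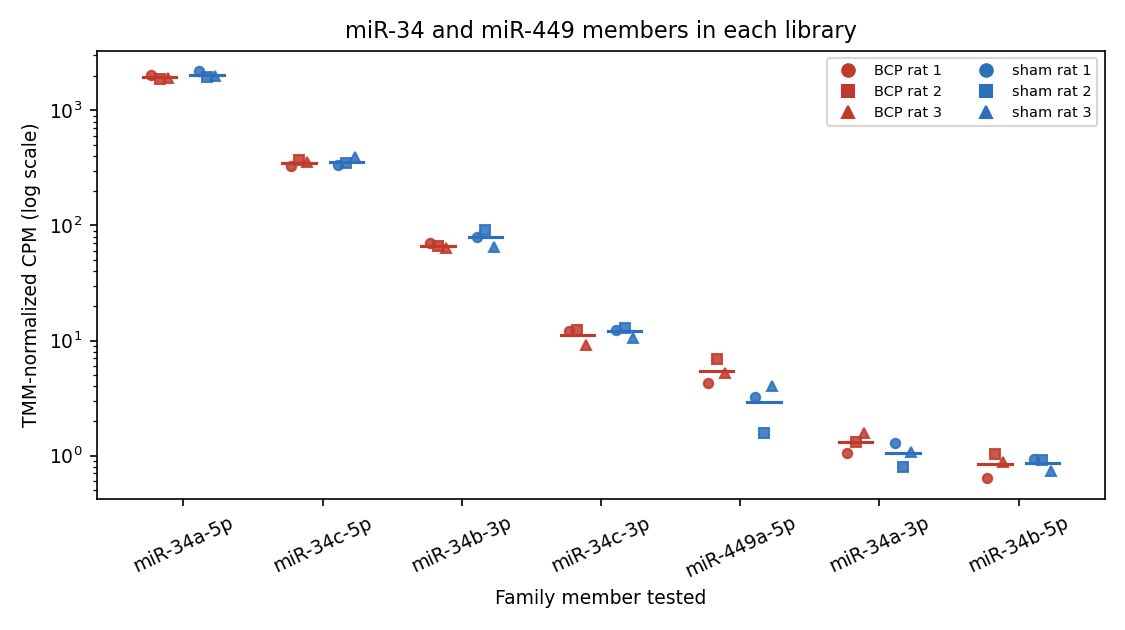
TMM-normalized CPM on a log scale for the 7 members past the filter, with 1 point per rat and the group mean as a bar (BCP red, sham-operated blue). The levels run from 1997 CPM for miR-34a-5p to 0.858 CPM for miR-34b-5p, and miR-449a-5p is the member whose 3 BCP points all lie above the 3 sham points.

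The comparison of BCP with sham rats asked which spinal miRNAs differ once bone cancer pain is established. None of the 7 tested members passed an adjusted p below 0.05 with an absolute log2 fold change above 0.8 in the quasi-likelihood test of edgeR with Benjamini-Hochberg adjustment over 459 tested miRNAs. Of all tested miRNAs 3.49% passed, 16 of them higher and 0 lower in BCP rats. At an unadjusted p below 0.05 in the same edgeR test there were 49 higher and 11 lower, and with total counts in place of TMM factors 16 were called higher and 2 lower. At that unadjusted level 1 member, miR-449a-5p, was higher in BCP rats, where the share of all tested miRNAs was 10.7%. DESeq2 and limma-voom also called 0 members.

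**Figure D2:**
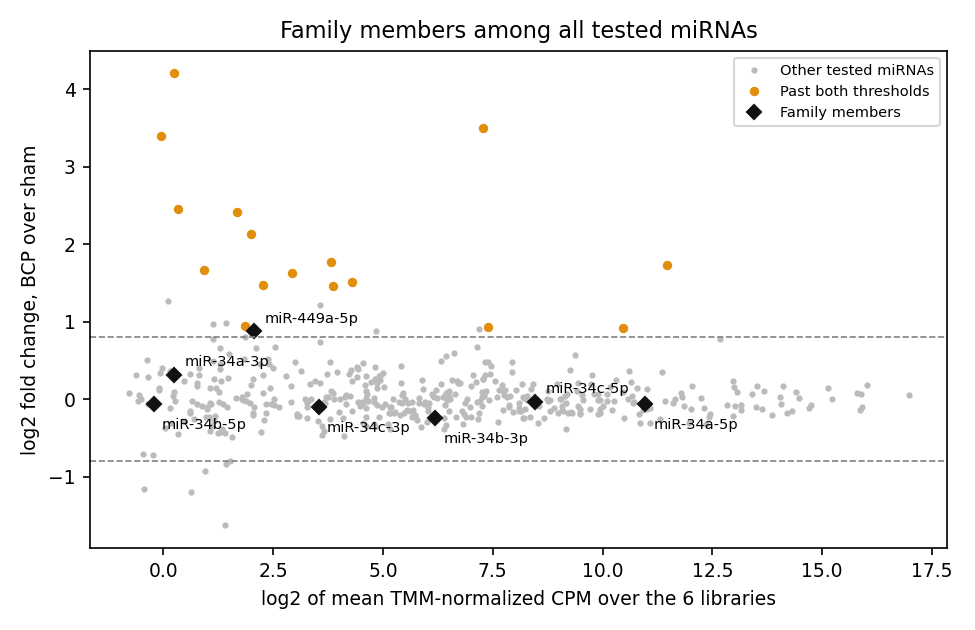
log2 fold change of BCP over sham against the log2 of mean TMM-normalized CPM for the 459 tested miRNAs, with family members as black diamonds, called miRNAs in orange and dashed lines at 0.8 and -0.8. miR-449a-5p lies at 0.88 and the other 6 members between -0.24 and 0.32.

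For the p53-linked member miR-34a, the main arm had nearly the same level in all rats. rno-miR-34a-5p had 48065, 25689 and 30505 counts in BCP rats 1, 2 and 3, against 30451, 29580 and 29590 in sham rats 1, 2 and 3. After normalization these were 2039, 1892 and 1929 CPM in BCP rats against 2195, 1945 and 1979 CPM in sham rats. The groups overlapped, with means of 1953 ± 76.2 and 2040 ± 136 CPM (SD, n = 3 rats each). The log2 fold change was -0.06 with a 95% interval from -0.28 to 0.15 (standard error 0.094, adjusted p = 0.815, edgeR). This was the narrowest interval among the members.

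The passenger arm, rno-miR-34a-3p, had 25, 18 and 25 counts in BCP rats against 18, 12 and 16 in sham rats. The means were 1.32 ± 0.26 and 1.05 ± 0.255 CPM (SD, n = 3 rats each), and the groups overlapped. Its log2 fold change was 0.32 with an interval from -0.36 to 0.99 (adjusted p = 0.708, edgeR), and it was 0.14 without sham rat 2 and 0.16 without BCP rat 3. The coefficient of variation between rats was 19.7% in BCP and 24.2% in sham rats, and counting error alone gives 21.004% and 25.5% at these counts. With 3 rats and counts this low, the comparison could hardly show a further spread. The edgeR fit gave a biological coefficient of variation of 18.8%.

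The 34b/34c cluster gave its counts mostly as miR-34c-5p and miR-34b-3p. rno-miR-34c-5p had 7761, 4997 and 5640 counts in BCP rats against 4653, 5280 and 5910 in sham rats. Normalized, this was 329, 368 and 357 CPM against 335, 347 and 395 CPM, so that the lowest value was in a BCP rat, the highest in a sham rat and the groups overlapped. The log2 fold change was -0.03 with an interval from -0.30 to 0.23 (adjusted p = 0.951, edgeR).

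rno-miR-34b-3p had 1651, 906 and 1001 counts in BCP rats against 1111, 1396 and 973 in sham rats. Its normalized levels were 70.0, 66.7 and 63.3 CPM in BCP rats against 80.1, 91.8 and 65.1 CPM in sham rats. Sham rats 1 and 2 lay above all BCP rats, and sham rat 3 lay among them. The means were 66.7 ± 3.36 and 79.0 ± 13.4 CPM (SD, n = 3 rats each). The log2 fold change was -0.24 with an interval from -0.59 to 0.10 (standard error 0.148, adjusted p = 0.546, edgeR), the lowest of the 7 members. Without sham rat 3 it was -0.40 (adjusted p = 0.099, edgeR) and without sham rat 2 it was -0.13.

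rno-miR-34c-3p had 285, 168 and 144 counts in BCP rats against 173, 196 and 159 in sham rats. The means of 11.2 ± 1.81 and 11.999 ± 1.20 CPM (SD, n = 3 rats each) differed by less than the spread between rats, and the log2 fold change was -0.10 (interval -0.48 to 0.28, adjusted p = 0.827, edgeR). rno-miR-34b-5p, which carries the family seed, had only 15, 14 and 14 counts in BCP rats against 13, 14 and 11 in sham rats. Its log2 fold change was -0.06 with the widest interval among the miR-34 arms, from -0.75 to 0.64 (adjusted p = 0.964, edgeR). Between rats it varied by 23.5% and 12.9%, below the 26.4% and 28.1% that counting error gives. At such counts this could hardly show a further spread, and the edgeR fit gave a biological coefficient of variation of 18.4%.

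**Figure D3:**
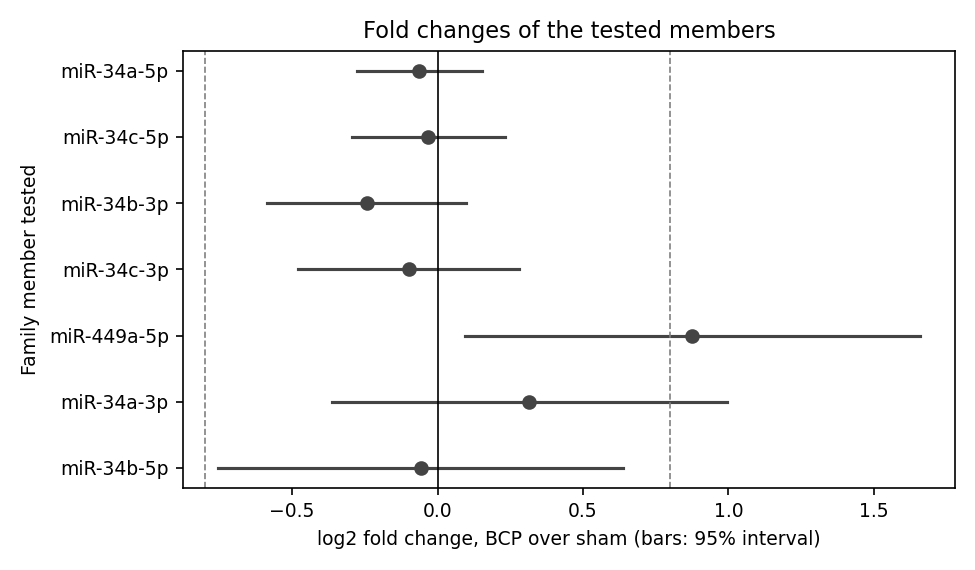
log2 fold change of BCP over sham with its 95% interval from the edgeR test for the 7 tested members, in order of level, with dashed lines at the threshold of 0.8 in both directions. The intervals of the 6 miR-34 arms include 0, and that of miR-449a-5p runs from 0.09 to 1.66.

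The miR-449 cluster was represented by a single arm. rno-miR-449a-5p had 100, 93 and 83 counts in BCP rats against 45, 24 and 60 in sham rats. Normalized, this was 4.24, 6.85 and 5.25 CPM in BCP rats against 3.24, 1.58 and 4.01 CPM in sham rats. Every BCP rat lay above every sham rat, although BCP rat 1 and sham rat 3 were close. Of all tested miRNAs 13.3% had every BCP library above every sham library. The means were 5.45 ± 1.32 and 2.95 ± 1.24 CPM (SD, n = 3 rats each), a 1.85-fold difference. A two-sided exact permutation test gave p = 0.1, below which a design of 3 against 3 cannot go.

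The log2 fold change of miR-449a-5p was 0.88 with a 95% interval from 0.09 to 1.66 (standard error 0.339, unadjusted p = 0.0324, adjusted p = 0.286, edgeR), so it did not pass the adjusted threshold. Of all tested miRNAs 5.23% had a log2 fold change above 0.8 in BCP rats. It was the most variable member, with a biological coefficient of variation of 27.6% against a median of 15.1% over the tested miRNAs. Relative to the total count, the level was 4.21 CPM in BCP rat 1 and 4.24 CPM in sham rat 3, so the groups overlapped on that scale. Without sham rat 2, the lowest library, the log2 fold change was 0.56 (adjusted p = 0.51, edgeR).

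Base composition moved with the same libraries. Across 427 of the 459 tested miRNAs with a RefSeq sequence, the correlation of each library's deviation from the mean log2 CPM with the GC content of the mature sequence was 0.262, -0.350 and -0.495 in BCP rats 1, 2 and 3, against 0.238, 0.546 and -0.242 in sham rats 1, 2 and 3. This is a description across miRNAs, which are not independent replicates. miRNAs with at most 40% GC lay lowest in sham rat 2, with a median deviation of -0.43 on the log2 scale, and the mature miR-449a-5p has 45.5% GC. With this trend removed from each library, a step chosen after seeing the data, miR-449a-5p had a log2 fold change of 0.72 (unadjusted p = 0.0506, adjusted p = 0.213, edgeR) and its groups overlapped, at 4.31 CPM in BCP rat 1 and 4.33 CPM in sham rat 3. In the same fit miR-34b-3p had a log2 fold change of -0.40 (unadjusted p = 0.0292, adjusted p = 0.171, edgeR), and the median over all tested miRNAs was -0.09. The other members had log2 fold changes of -0.13 for miR-34a-5p, -0.15 for miR-34c-5p, -0.17 for miR-34c-3p, 0.10 for miR-34a-3p and -0.31 for miR-34b-5p in this fit, with adjusted p from 0.37 to 0.886 (edgeR). The part of base composition in these differences was not tested further.

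The other miR-449 arms were hardly found. rno-miR-449a-3p had 1 count in BCP rat 1 and 0 in each of the other 5 libraries. rno-miR-449c-5p, which carries the family seed, was listed at 0 in all 6 libraries, and 3 counts over the summed libraries allow a level of up to 0.0309 CPM. This limit holds only if reads of this miRNA could be counted under its name, which was not tested. Of the 753 listed miRNAs, 150 were at 0 in every library. rno-miR-449c-3p was also at 0 throughout. Its RefSeq sequence has 17 nucleotides, below the 18 to 40 nucleotides of the reads that the authors mapped. Limits and intervals of this kind cover counting error only, because PCR copies of one molecule were not told apart.

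Whether miR-449a-5p differed from the miR-34 arms with the same seed in its change was examined through ratios of counts within each library. Its ratio to miR-34a-5p was 2.08, 3.62 and 2.72 per 1000 in BCP rats against 1.48, 0.811 and 2.03 per 1000 in sham rats, which did not overlap, although BCP rat 1 and sham rat 3 were again close. The mean log2 ratio was -8.51 ± 0.40 and -9.52 ± 0.662 (SD, n = 3 rats each), a difference of 1.01. The differences in log2 ratio were 0.98 against miR-34c-5p and 1.00 against miR-34b-5p, also without overlap. The ratio to miR-34b-5p rests on only 11 to 15 counts of that arm in each library. Its log2 value was 2.53 in BCP rat 3 and 2.40 in sham rat 3, so these groups were close too. Exact permutation tests of the 3 ratios each gave p = 0.1, two-sided, and 0.167 after Benjamini-Hochberg adjustment over 5 ratios. Without sham rat 2 the differences were 0.65, 0.61 and 0.56 for miR-34a-5p, miR-34c-5p and miR-34b-5p. The 3 ratios share the miR-449a-5p counts and are not independent of each other.

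Within the 34b/34c cluster, the ratio of miR-34b-3p to miR-34c-3p had a mean log2 value of 2.58 ± 0.188 in BCP rats against 2.71 ± 0.112 in sham rats (SD, n = 3 rats each, two-sided exact permutation test, p = 0.4, adjusted p = 0.5). For the 5p arms, the values were -8.67 ± 0.275 and -8.65 ± 0.312 (SD, n = 3 rats each, two-sided exact permutation test, p = 1). The groups overlapped in both ratios. The difference for the 3p arms, -0.12, was smaller than the SD of the BCP rats and slightly larger than that of the sham rats. Per 1000 counts of miR-34c-3p there were 5393 to 7122 counts of miR-34b-3p, whereas per 1000 counts of miR-34c-5p there were only 1.86 to 2.80 counts of miR-34b-5p.

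**Figure D4:**
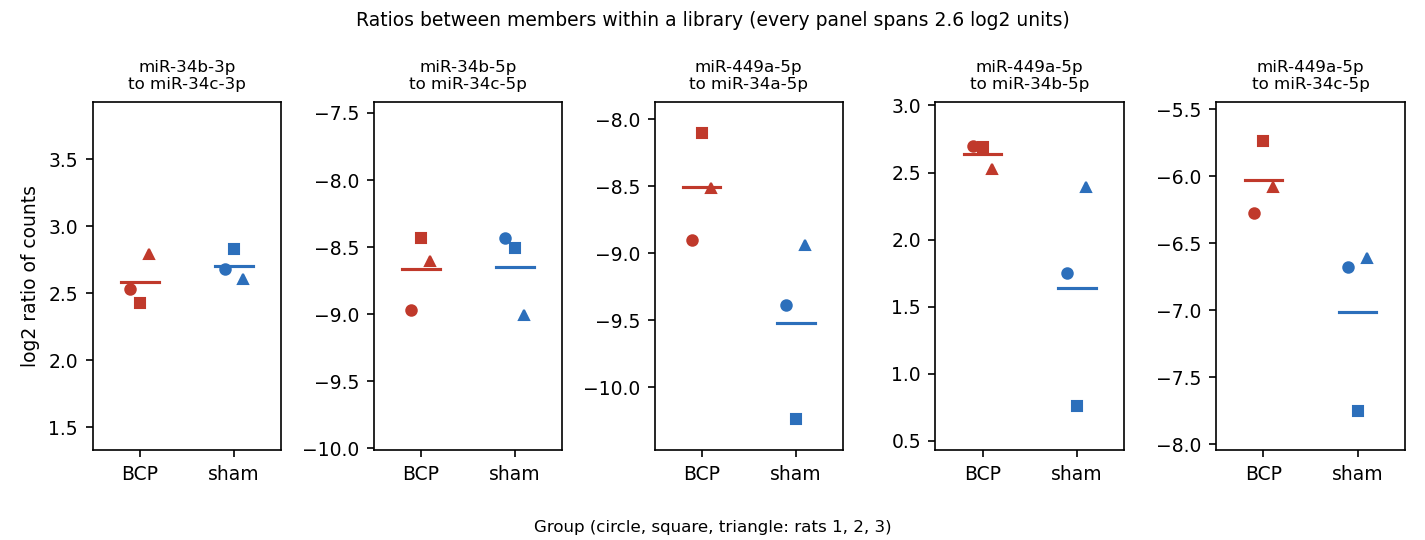
log2 ratio of counts between pairs of members within each library, with 1 point per rat and the group mean as a bar, where each panel spans the same number of log2 units. The groups do not overlap in the 3 panels with miR-449a-5p, with differences in means of 0.98 to 1.01, and overlap in both panels that set miR-34b against miR-34c.

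In the deposited counts, most reads of the 34b hairpin were from the 3p arm and most reads of the neighbouring 34c hairpin from the 5p arm. In the 34b hairpin the 5p arm made up 0.90%, 1.52% and 1.38% of the counts in BCP rats against 1.16%, 0.993% and 1.12% in sham rats, so that the 3p arm held from 98.5% to 99.1%. These shares rest on 11 to 15 counts of miR-34b-5p, whose split from miR-34c-5p is uncertain as said above, and both have 23 nucleotides where the authors took 21 to 22 for known miRNAs. The effect of this on the shares was not tested. The 95% Wilson intervals of these shares were broad, from 0.546% to 1.48% in BCP rat 1, the deepest library. In the 34c hairpin the 5p arm made up 96.5%, 96.7% and 97.5% in BCP rats against 96.4%, 96.4% and 97.4% in sham rats. In the 34a hairpin the 5p arm held from 99.92% to 99.96% of the counts in the 6 libraries. The means of the 34a, 34b and 34c hairpins differed by -0.0167, 0.178 and 0.166 percentage points between BCP and sham rats, with overlapping groups (two-sided exact permutation tests, p = 0.3, 0.4 and 0.5, each with an adjusted p = 0.667 over 4 hairpins). In the miR-449a hairpin the 3p arm had the single count given above, and the mean 5p share differed by -0.33 percentage points (two-sided exact permutation test, p = 1).

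The summed level of the 5 members with the seed GGCAGUG consisted mostly of miR-34a-5p. The sum was 2373, 2268 and 2292 CPM in BCP rats against 2535, 2295 and 2379 CPM in sham rats, with overlapping groups and means of 2311 ± 54.8 and 2403 ± 122 CPM (SD, n = 3 rats each). miR-34a-5p made up between 83.2% and 86.6% of this sum and miR-34c-5p between 13.2% and 16.6%. The effect on these shares of the 23 nucleotides of miR-34c-5p and miR-34b-5p, above the authors' 21 to 22, was not tested. miR-449a-5p added 0.179%, 0.302% and 0.229% in BCP rats against 0.128%, 0.0688% and 0.169% in sham rats. The member with the highest fold change thus supplied at most 0.302% of the reads with this seed.

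The miRNAs outside the family whose log2 CPM followed each member most closely over the 6 libraries were also sought. These values rest on 6 libraries that share their depth and base composition with every miRNA compared, and are a description. For miR-449a-5p these were miR-582-5p, miR-29a-3p and miR-19b-3p, with Pearson r of 0.975, 0.966 and 0.966 and a Spearman rho of 0.943 for each. All 3 were lowest in sham rat 2, at 16.9, 6634 and 1.45 CPM. For miR-34b-3p they were miR-134-5p, miR-653-3p and miR-323-5p, with r of 0.988, 0.986 and 0.985, and all 3 were highest in sham rat 2. 50 of the 452 miRNAs had r above 0.9 with miR-34b-3p, against 15 with miR-449a-5p, 5 with miR-34c-5p and 2 with miR-34a-5p. The miRNA most like miR-34a-5p was miR-194-3p (r = 0.922), that most like miR-34c-5p was miR-300-3p (r = 0.941), and that most like miR-34c-3p was miR-23b-5p (r = 0.997). miR-216a-5p was most like miR-34a-3p (r = 0.992) and miR-146b-3p was most like miR-34b-5p (r = 0.956).

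Other miRNAs linked to p53, through transcription or through processing of their precursors, were examined beside miR-34a. The list held miR-192, miR-194, miR-107, miR-143, miR-145, miR-16 and miR-200c with both arms, 14 listed miRNAs of which 10 passed the filter, and miR-215 matched no row. Of these 1 was called higher and 0 lower in BCP rats by edgeR, with 2 at an unadjusted p below 0.05, and the median log2 fold change was 0.12 against -0.0034 for all tested miRNAs. The called miRNA was miR-200c-3p, an epithelial miRNA that represses Zeb1 and Zeb2. It had 10.1, 12.6 and 12.1 CPM in BCP rats against 4.04, 4.60 and 2.54 CPM in sham rats, which did not overlap, and its log2 fold change was 1.63 with a standard error of 0.228 (adjusted p = 0.00556, edgeR). The lowest was miR-194-3p with a log2 fold change of -0.44 (adjusted p = 0.601, edgeR).

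Lists of miRNAs linked to cell types are given for the same libraries. The names are labels of the lists, whose miRNAs need not be confined to that type. Whether the lumbar tissue held each type, such as choroid plexus, was not examined. Of 12 neuronal miRNAs, all past the filter, 0 were called by edgeR and 1 had an unadjusted p below 0.05, and their summed level was 129368 to 140680 CPM in BCP rats against 124948 to 136044 CPM. Their log2 fold changes ran from -0.47 for miR-138-1-3p to 0.39 for miR-137-5p. Of 5 oligodendrocyte miRNAs 0 were called and 0 had an unadjusted p below 0.05 (edgeR), with sums of 17712 to 20969 CPM against 19365 to 23845 CPM and log2 fold changes from -0.21 for miR-219a-2-3p to 0.14 for miR-219a-5p.

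Of 7 choroid plexus miRNAs, 6 were tested, 0 were called and 1 had an unadjusted p below 0.05 (edgeR), with sums of 3818 to 4468 CPM against 3641 to 5016 CPM. miR-448-5p was the lowest of them, with a log2 fold change of -0.83 (adjusted p = 0.052, edgeR), and miR-204-5p the highest, with -0.09. In 6 other settings 1 choroid plexus miRNA was called, namely at least 10 counts in every library, total counts, DESeq2-type size factors in edgeR, the likelihood ratio test, the exact test and the GC trend removed. Of 14 epithelial miRNAs, which include miR-200c-3p, 5 were tested, 1 was called higher, 2 had an unadjusted p below 0.05 (edgeR) and 4 were listed at 0. The number called was 2 without BCP rat 1, and also with DESeq2, the likelihood ratio test, the exact test and the replicate block. Their sums were 34.99 to 45.7 CPM against 22.2 to 24.9 CPM, and miR-200b-3p was the lowest, with a log2 fold change of -0.23. Besides miR-200c-3p, the sum differed mainly through miR-203a-3p, a miRNA of skin epithelium named here after its values were seen. It had 9.84, 21.4 and 18.7 CPM in BCP rats against 6.42, 5.92 and 8.89 CPM in sham rats, with a log2 fold change of 1.22 (adjusted p = 0.0692, edgeR).

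Of 10 myeloid miRNAs, 8 were tested and 6 were called higher (3 where at least 10 counts in every library were required). Of all tested miRNAs 3.49% were called. The 2 arms of miR-142, which blood-derived cells express at high levels, were listed at 0 in all libraries. The sums were 5468 to 6171 CPM against 2199 to 2834 CPM, of which miR-146a-5p held 4372 ± 309 CPM in BCP and 1312 ± 198 CPM in sham rats (SD, n = 3 rats each). miR-155-5p, which is induced in activated macrophages and microglia, had the highest log2 fold change, 3.50 (adjusted p = 1.98e-06, edgeR), and miR-150-5p the lowest, -0.13. The others called higher were both arms of miR-146a, with log2 fold changes of 1.74 (5p) and 2.42 (3p), both arms of miR-223, with 2.13 (3p) and 2.46 (5p), and miR-155-3p, with 3.40. For 10 skeletal muscle and 2 endothelial miRNAs, of which 5 and 2 were tested, the sums overlapped between the groups, with 0 called and 0 at an unadjusted p below 0.05 (edgeR). Their log2 fold changes ran from -0.05 for miR-133b-3p to 0.35 for miR-1-3p in muscle, and were 0.03 and 0.18 for miR-126a-3p and miR-126a-5p in endothelium. The 4 erythroid miRNAs were listed at 0 in all libraries. The epithelial and myeloid sums, in which 1 or 2 miRNAs made most of the difference, did not overlap between the groups and were higher in BCP rats, as miR-449a-5p was, and their part in its difference was not tested.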

How the data were processed

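The authors trimmed reads with the FASTX Toolkit, mapped clean reads to Rnor_6.0 with Bowtie (Bowtie2 2.2.3 in the submitters' processing notes) and took reads of 21 to 22 nucleotides with a miRBase match as known miRNAs. Raw read counts were deposited for each mature miRNA and library, with no normalization. miR-34b-5p and miR-34c-5p have 23 nucleotides in RefSeq. Of the 753 names, 688 had a RefSeq mature sequence.

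These counts were tested with edgeR 4.0.16 under R 4.3.3 (filterByExpr with a minimum count of 10, TMM, quasi-likelihood test, Benjamini-Hochberg adjustment over 459 miRNAs). Calls required an adjusted p below 0.05 and an absolute log2 fold change above 0.8. DESeq2 1.42.0 and limma 3.58.1 were alternatives. Ratios added 0.5 to each count. Arm shares were tested where a hairpin had at least 10 counts in every library.

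The members, the 9 lists and the tests were chosen with earlier results of these data known. Named miRNAs are all members, the called, highest and lowest of each list, and the 3 most like each member by Pearson r of log2 CPM (prior count 2), with neighbours in level. The neighbours are printed for miR-34a-5p, and the likeness in part. The study describes the libraries of each group as biological replicates. The labels name neither single animals nor batches, and p-values measure the spread between these libraries.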

Additional observations from a re-analysis of the deposited data

How the results depend on the processing

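Under 15 alternatives to the filter, normalization, test, replicate block and set of rats, and with the GC trend removed, 0 of the tested members were called, and miR-449a-5p, miR-34a-5p, miR-34b-3p and miR-34a-3p kept their direction, although not their size. Leaving out a rat gave -0.12 to -0.036 for the log2 fold change of miR-34a-5p, -0.40 to -0.13 for miR-34b-3p and 0.14 to 0.46 for miR-34a-3p. The log2 fold change of miR-449a-5p ranged from 0.56 (without sham rat 2) to 1.14 (without sham rat 3), with an adjusted p from 0.107 to 0.762 when a rat was left out and from 0.149 to 0.354 otherwise. Leaving out a rat turned the sign of members near 0, from -0.20 to 0.13 for miR-34b-5p, -0.21 to 0.018 for miR-34c-3p and -0.11 to 0.011 for miR-34c-5p. It gave differences of -0.20 to 0.13 for the log2 ratio of miR-34b-5p to miR-34c-5p and -0.23 (without BCP rat 3) to -0.043 (without BCP rat 2) for that of miR-34b-3p to miR-34c-3p. For the 5p share it gave -0.136 to 0.487 percentage points in the 34c hairpin, 0.0507 (without BCP rat 2) to 0.361 (without BCP rat 1) in the 34b hairpin and -0.0247 to -0.00978 in the 34a hairpin. With 0.5 added to each count the difference in the 5p share of the miR-449a hairpin turned from -0.33 to 0.436 percentage points, since 0.5 weighs more where the arms have fewer counts. The number of miRNAs called was 16 in the reported test, 25 with the likelihood ratio test (22 higher, 3 lower) and 8 to 20 when a rat was left out, with 8 without BCP rat 2, 10 without BCP rat 3 and 9 without sham rat 1. The cause of these shifts was not tested. Deviations of same-numbered libraries of both groups had r = -0.0282, -0.434 and 0.607 for numbers 1, 2 and 3, within the range of different-numbered libraries (-0.598 to 0.674), so the numbers were not taken as pairs. With the replicate block 18 miRNAs were called, and it changed no call of a member. Counts of 11 to 25 limit miR-34b-5p and miR-34a-3p.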
